A study of Homo sapiens with 54 samples.

Results

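The lysosomal gene set described here holds 40 genes, taken by name from the 58735 genes of a bulk RNA-seq table and followed in all 11 bulk groups and in 1 single-cell library. All 40 were found in the table under a single identifier each. They fall into 6 families: 11 cathepsins and other proteases, 5 glycosidases, 8 lipid enzymes, lipid carriers and activators, 6 membrane proteins, 7 proton pump genes and the 3 MiT transcription factors. The study differentiated H1, an established human pluripotent stem cell line, into cells labelled as macrophages, either on a flat surface (2D) or in a porous 3D scaffold, and asked how the 3D cells compare with the 2D cells.

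The bulk groups were 2D at day 12 (4 libraries), 3D at day 12 (4 libraries), 3D at days 16, 19 and 23 (3 libraries each), and 3D at the same 3 days labelled FBS (3 libraries each). Further 3D groups of 2 libraries each were labelled SP6A, SP14 and E. coli. The labels enter SP6A and SP14 where other samples have a day, and neither their meaning nor the day, dose or length of any contact with E. coli is given. FBS usually stands for fetal bovine serum, and its amount is not given. All groups share the H1 background and carry no stated genetic change. No label says that replicates came from separate cultures, so p-values measure only the spread between these libraries, which may be technical. Bulk levels are TPM, a share of each library's transcripts corrected for gene length, which keeps no read depth, so the depth of the bulk libraries is unknown here. The chromatin libraries and the other single-cell libraries of the series were not analysed here.

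Lysosomes are acidic compartments that degrade material taken up from outside or delivered by autophagy, and macrophages are rich in them. The proton pump (V-ATPase) acidifies the lumen. Soluble hydrolases such as the cathepsins, the glycosidases and the lipid enzymes work at that acid pH, and heavily glycosylated membrane proteins such as LAMP1 and LAMP2 line the inside of the membrane. TFEB, TFE3 and MITF bind E-box-like sequences in promoters of lysosomal genes, and TFEB is known as a main activator of lysosome formation. In the fed state kinase signalling at the lysosome surface keeps these factors in the cytoplasm, so their mRNA level is not a measure of their activity.

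Promoter windows were available for 28 of the 40 genes, from RefSeq on build GRCh38.p14, each running from 250 bases before to 50 bases after a gene start. Of the 28 genes, 5 had several starts, which gave 42 windows. The genes without a window were ASAH1, ATP6V0D2, ATP6V1A, ATP6V1B2, ATP6V1H, CTSB, CTSK, CTSS, HEXA, LAMP2, LGMN and PSAP. The palindrome CACGTG was found in 7 of the 42 windows (16.7%), against 7.26% of all 35116 windows of the same length. The longer TCACGTG, which contains it, was found on either strand in 14.3% of these windows against 3.71% of all, and TCATGTG on either strand in 14.3% against 2.92%. The 7 genes with CACGTG were ATP6V0D1, CD63, CTSA, CTSD, GAA, LAMP1 and MCOLN1. The windows of the 42 starts had a median GC content of 68.8%, against 58.7% over all windows, and a match is a description of letters, not a bound site. LAMP1 is shown because its window held 6 copies, of which 5 lie whole within the 180 bases below, on the plus strand at chr13:113297039-113297218. Capitals mark each CACGTG.
LAMP1: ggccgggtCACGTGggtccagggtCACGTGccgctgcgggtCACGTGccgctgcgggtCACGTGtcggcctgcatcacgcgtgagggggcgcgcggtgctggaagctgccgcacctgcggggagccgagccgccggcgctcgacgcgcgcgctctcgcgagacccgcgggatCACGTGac
The next sequences are shown because their genes lead the changes described below, or hold the second motif, each from the gene's own strand and ending before the gene start. Capitals mark the copy of TCACGTG nearest to the start, or of TCATGTG in GRN and TPP1, read here as its reverse complement. Other copies are left in lower case, among them a TCATGTG nearer to the start of CTSA. CTSD lies on the minus strand (chr11:1763948-1763994), GAA on the plus strand (chr17:80101530-80101576), MCOLN1 on the plus strand (chr19:7522590-7522623), CTSA on the plus strand (chr20:45891290-45891334), GRN on the plus strand (chr17:44345076-44345122) and TPP1 on the minus strand (chr11:6619423-6619450).
CTSD: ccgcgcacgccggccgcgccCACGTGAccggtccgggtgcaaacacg
GAA: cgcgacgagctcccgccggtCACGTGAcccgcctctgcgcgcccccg
MCOLN1: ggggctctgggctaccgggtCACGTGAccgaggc
CTSA: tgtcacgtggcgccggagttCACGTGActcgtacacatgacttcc
GRN: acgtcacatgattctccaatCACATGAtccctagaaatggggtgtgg
TPP1: atagagctcatgtgatccgtCACATGAc

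Summed over the 40 genes, lysosomal transcripts made up the largest share of all TPM in the SP14 and SP6A groups. The share was 0.744% to 0.856% in the 4 libraries of 3D day 12 and 0.975% to 1.10% in the 4 libraries of 2D day 12. These did not overlap, but as a share of TPM without 3 genomic clone genes and the mitochondrial genes they did, at 0.865% to 1.04% in 3D and 1.03% to 1.16% in 2D. The clone genes themselves averaged 7.69% of TPM in the 3D group and 0.418% in the 2D group. The share of all TPM was 1.29% to 1.93% in the 18 libraries of days 16, 19 and 23, with or without FBS. The SP6A libraries stood at 2.89% and 2.96% and the SP14 libraries at 3.45% and 3.50%, above all other libraries. The E. coli libraries stood at 1.12% and 0.935%. Of the 40 genes, 24 had their highest group mean in SP14, 5 in E. coli, 4 in 3D day 23, 3 in SP6A and 1, TFEB, in 2D. The share of all genes highest in each group was not counted. In bulk samples, fewer cells of a type and less RNA per cell cannot be told apart.

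**Figure D1:**
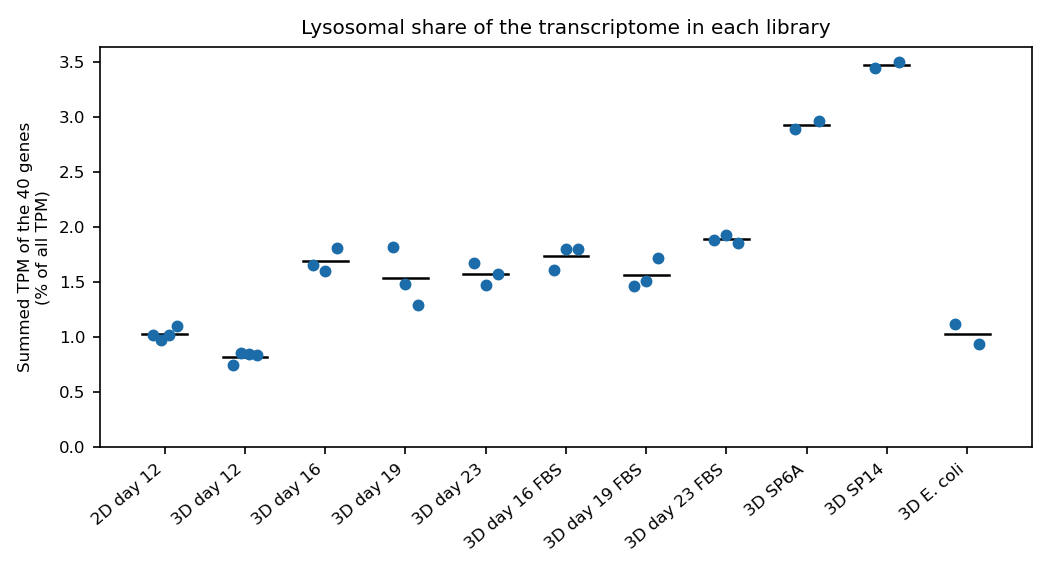
Summed TPM of the 40 lysosomal genes as a percentage of all TPM (y axis, from 0) in each library of the 11 bulk groups (x axis). Points are libraries and bars are group means. The SP6A and SP14 libraries lie between 2.89% and 3.50%, above every other library, and the 3D day 12 libraries lie lowest on this scale, which includes clone and mitochondrial genes.

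Defining macrophage markers were present throughout, but the libraries also held RNA of other blood cells. The summed TPM of 12 macrophage markers was 2773 to 3159 in 2D day 12, 4074 to 6269 in 3D day 12, 10562 to 12009 in 3D day 16 and 12376 to 13410 in SP6A and SP14. The 12 markers were detected in each of these groups, and in E. coli MARCO was at 0 in both libraries. The granulocyte sum (8 markers) was 1687 to 3051 TPM in 2D day 12 and 277 to 430 in 3D day 12. The monocyte sum (8 markers) was 8050 to 9786 TPM in 2D day 12, 4547 to 6487 in 3D day 12 and 1156 to 1242 in 3D day 16. Erythroid markers (11 genes) summed to 3427 to 4408 TPM in 2D day 12, 27.7 to 1719 in 3D day 12 and at most 2.14 in 3D day 16. Megakaryocyte markers (8 genes) summed to 702 to 1237 TPM in 2D day 12 and 15.3 to 40.05 in 3D day 12, and mast, basophil or eosinophil markers (10 genes) to 366 to 631 and 0.28 to 372. The part of these cell mixtures in the results below was not tested in bulk, and the single-cell values at the end give the level of each gene by cell class on day 12. Library pairs within a group had correlations of log2(TPM + 1) from 0.891 to 0.968, except the E. coli pair at 0.657.

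At day 12 the lysosomal set was split in 3D against 2D cells, also within the cathepsins. Cathepsins B, L, C and S rose. Cathepsins D and Z, the MiT factor TFEB, progranulin, LAMP1 and the channel MCOLN1 fell. A gene was called when its adjusted p in a limma fit of log2(TPM + 1) was under 0.05. The test covered 39 members, with 8 risen, 13 fallen and 18 without a call. Over all 13131 genes in the fit, 13.5% rose and 25.2% fell, 38.7% together. The median log2 change was 0.12 over the 39 genes and -0.21 over all genes. ATP6V0D2, an alternative pump subunit typical of osteoclasts, was at 0 in all 8 libraries and was not tested. With TPM rescaled by median ratios the split of the set turned from 8 risen and 13 fallen to 15 and 11, and without 3 genomic clone genes and the mitochondrial genes it was 12 and 11. The all-gene median then was -0.04 and -0.07. Over all genes 2438 rose and 2608 fell under median-ratio scaling, and 2256 rose and 2740 fell without the clone and mitochondrial genes. Of the 21 called genes of the set, 18 kept their call in every alternative run.

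**Figure D2:**
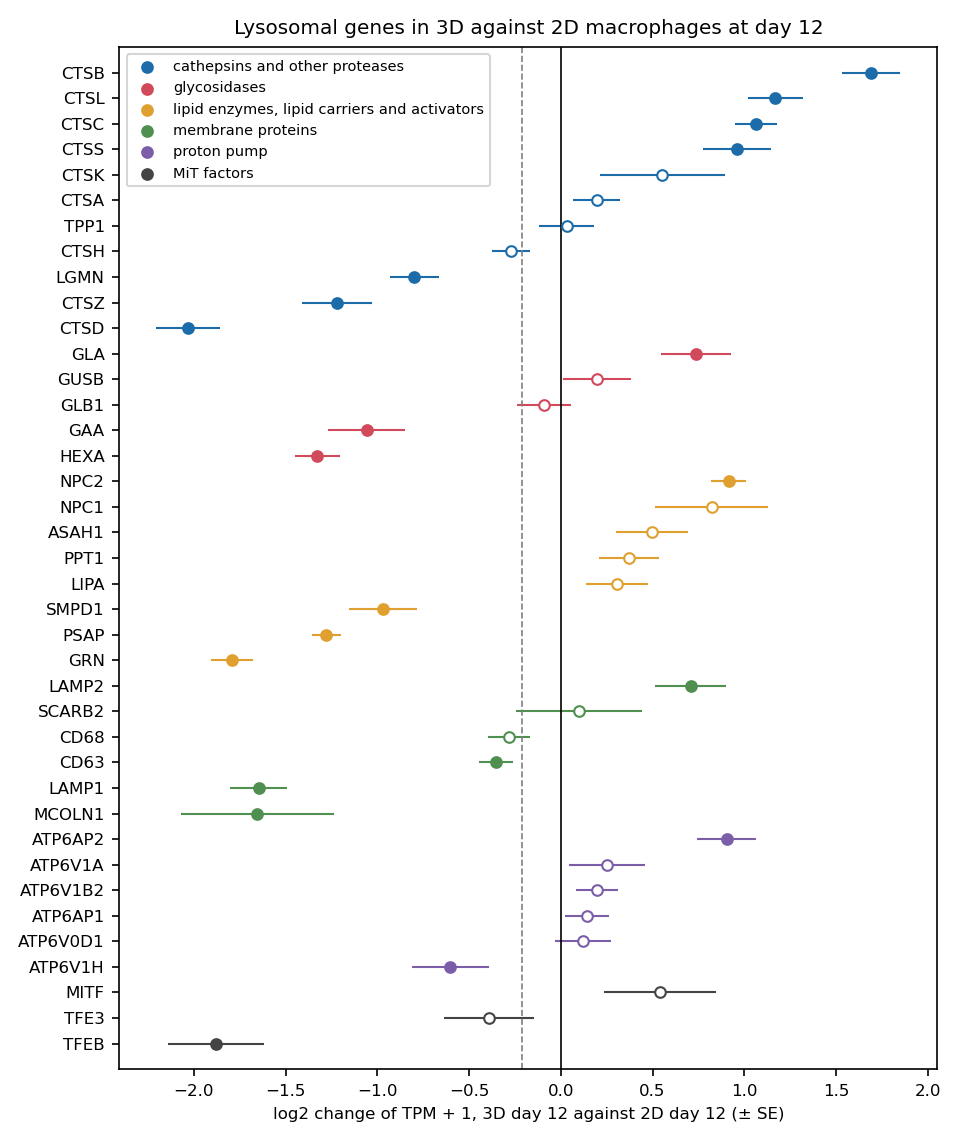
Log2 change of TPM + 1 in 3D day 12 against 2D day 12 (x axis, ± SE, 4 libraries in each group) for the 39 lysosomal genes tested, by family (colour). Filled points are called genes, open points are not, and the dashed line is the all-gene median of -0.21. CTSB lies highest at 1.69 and CTSD lowest at -2.03, both in the protease family.

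Cathepsin B, a cysteine protease of late endosomes and lysosomes, showed the largest gain of the set. CTSB stood at 541, 638, 580 and 615 TPM in the 2D libraries and at 1330, 2068, 2150 and 2282 TPM in the 3D libraries. The lowest 3D library lay above the highest 2D library, and the log2 change was 1.69 ± 0.16 (SE, adjusted p = 3.78e-05). Cathepsin L (CTSL), a related endopeptidase, stood at 115, 116, 144 and 175 TPM in 2D and at 310, 340, 278 and 301 TPM in 3D. Its groups did not overlap, and it rose by 1.17 ± 0.15 on the log2 scale (adjusted p = 0.000221). Cathepsin C (CTSC), which activates serine proteases of immune cells, stood at 237, 279, 254 and 240 TPM in 2D and at 461, 499, 537 and 627 TPM in 3D. It rose by 1.06 ± 0.11 (adjusted p = 8.89e-05). CTSS, which trims the invariant chain during antigen presentation, rose by 0.96.

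Cathepsin D, an aspartic protease and the most abundant member of the set in 2D, went the other way. CTSD stood at 3055, 2632, 2876 and 3204 TPM in 2D and at 814, 866, 787 and 476 TPM in 3D. Every 3D library lay below every 2D library, and CTSD fell by 2.03 ± 0.17 on the log2 scale (adjusted p = 2.18e-05). CTSZ, a carboxypeptidase, stood at 37.0, 41.0, 32.7 and 45.03 TPM in 2D and at 16.3, 15.01, 12.4 and 21.6 TPM in 3D, and fell by 1.22 ± 0.19 (adjusted p = 0.00081). Legumain (LGMN), an asparaginyl endopeptidase that matures other cathepsins, fell by 0.80. CTSA, CTSH, CTSK and TPP1 were not called, with log2 changes from -0.27 to 0.55. Under median-ratio scaling CTSA was called as risen (0.41, adjusted p = 0.0225).

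The glycosidases, which remove sugars from glycolipids and glycogen, were also split. HEXA, a subunit of beta-hexosaminidase A, stood at 240, 197, 223 and 244 TPM in 2D and at 92.9, 95.5, 94.6 and 75.5 TPM in 3D. It fell by 1.33 ± 0.12 (adjusted p = 3.78e-05), with no overlap. GAA, the lysosomal acid alpha-glucosidase, stood at 33.6, 26.5, 40.6 and 36.3 TPM in 2D and at 11.1, 18.3, 19.1 and 15.8 TPM in 3D, and fell by 1.06 ± 0.21 (adjusted p = 0.0029). GLA, alpha-galactosidase A, rose by 0.74, a call that was lost in a fit of all 32 libraries (adjusted p = 0.366), and GLB1 and GUSB were not called, at -0.09 and 0.19.

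Among the lipid genes, the 2 precursor proteins fell and a cholesterol carrier rose. Progranulin (GRN), a secreted and lysosomal precursor of granulins, stood at 1072, 1067, 1228 and 1336 TPM in 2D and at 297, 385, 351 and 322 TPM in 3D. It fell by 1.79 ± 0.11 (adjusted p = 3.82e-06). Prosaposin (PSAP), the precursor of the saposin activators, stood at 1097, 1105, 1100 and 1217 TPM in 2D and at 466, 487, 462 and 444 TPM in 3D. It fell by 1.28 ± 0.08 (adjusted p = 3.53e-06), the lowest adjusted p of the set. NPC2, which hands cholesterol to NPC1, rose by 0.91, and acid sphingomyelinase (SMPD1) fell by 0.97. LIPA, ASAH1, PPT1 and NPC1 were not called, at 0.31 to 0.82. All of them were called as risen under median-ratio scaling (adjusted p = 0.0143 to 0.029). ASAH1, PPT1 and NPC1 were also called as risen without the clone and mitochondrial genes (adjusted p = 0.0238 to 0.031).

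The membrane proteins LAMP1 and LAMP2, close relatives that line the lysosomal membrane, moved in opposite directions. LAMP1 stood at 25.2, 23.7, 24.3 and 29.6 TPM in 2D and at 7.55, 7.64, 7.56 and 7.22 TPM in 3D, and fell by 1.65 ± 0.16 (adjusted p = 4.37e-05). LAMP2 went from 12.1 ± 2.47 TPM (SD, n = 4) in 2D to 20.2 ± 2.77 TPM (SD, n = 4) in 3D, and rose by 0.71. MCOLN1, the lysosomal calcium channel, stood at 110, 65.7, 83.5 and 101 TPM in 2D and at 37.5, 38.4, 41.2 and 9.17 TPM in 3D. It fell by 1.65 ± 0.42 (adjusted p = 0.0104), with the fourth 3D library well below the other three. The tetraspanin CD63 fell by 0.36, a call that was lost under both other scalings, and CD68 and SCARB2 were not called, at -0.28 and 0.10.

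Among the 6 proton pump genes in the test there was 1 gain and 1 loss. ATP6AP2, the prorenin receptor and an accessory pump subunit, rose by 0.90, from 39.2 ± 2.91 to 75.1 ± 15.1 TPM (SD, n = 4 each). ATP6V1H, a regulatory subunit, fell by 0.60 (adjusted p = 0.0435). Its groups overlapped, and its adjusted p was 0.0519 to 0.112 without each of 6 of the 8 libraries in turn. ATP6V0D1, ATP6V1A, ATP6V1B2 and ATP6AP1 were not called, at 0.12 to 0.25. The balance depended on the scaling. Under median-ratio scaling ATP6V1B2 (0.40, adjusted p = 0.0171) and ATP6AP1 (0.35, adjusted p = 0.0394) were called as risen. Without the clone and mitochondrial genes ATP6V1B2 was called as risen (0.37, adjusted p = 0.0326). The ATP6V1H call was lost under both scalings (adjusted p = 0.171 and 0.137).

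Of the MiT factors, TFEB was the only one called. TFEB stood at 47.9, 42.1, 29.2 and 58.4 TPM in 2D and at 6.85, 11.5, 13.1 and 14.0 TPM in 3D, with no overlap. It fell by 1.88 ± 0.26 (adjusted p = 0.000406). TFE3 stood at 18.97, 19.07, 17.4 and 18.9 TPM in 2D and at 15.6, 17.1, 17.9 and 7.75 TPM in 3D (log2 change -0.39, adjusted p = 0.241). MITF stood at 3.04, 1.67, 1.33 and 4.22 TPM in 2D and at 3.16, 4.01, 4.42 and 4.23 TPM in 3D (0.54, adjusted p = 0.188). Both overlapped between the groups.

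Other genes of the same pathway, from lists that hold none of the 40, are described against the 38.7% of all genes that were called, and calls in both directions are therefore not particular to them. Of 27 other lysosomal hydrolases tested, 5 rose and 9 fell, with a list median of -0.10. FUCA1, the lysosomal fucosidase, rose by 2.85, from 11.8 ± 1.26 to 91.0 ± 10.3 TPM (SD, n = 4 each), the sialidase NEU1 rose by 1.28 and the acid phosphatase ACP2 by 1.05, while NAGLU fell by 1.18. Of 14 other membrane and cofactor proteins, 2 rose and 4 fell, among them CLCN7, the lysosomal chloride exchanger, which fell by 1.51. Of 12 other pump subunits, 4 rose and 2 fell: ATP6V0A1 fell by 1.46 and TCIRG1 by 1.13, both forms of the large membrane subunit, while the peripheral subunits ATP6V1C1 and ATP6V1G1 rose by 1.59 and 0.66. Of 12 genes that sort enzymes to the lysosome, 1 rose (VPS35 of the retromer, 0.99) and 4 fell. Of 22 genes that control MiT factors and autophagy, 4 rose and 4 fell. Of the Ragulator scaffold, LAMTOR1, LAMTOR2 and LAMTOR4 fell by 0.90, 0.77 and 1.15, while LAMTOR3 rose by 1.78 and LAMTOR5 by 0.89.

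The promoter letters shown above were set against these calls as a description. Among the fallen genes, 9 had a window, and 5 of these 9 (CD63, CTSD, GAA, LAMP1 and MCOLN1) held CACGTG. CD63 is the gene whose call was lost under both other scalings, and 1 of its 8 windows held the motif. None of the 5 risen genes with a window held it, and 2 of the 14 genes not called did. Of these 2, CTSA was called as risen under median-ratio scaling (0.41, adjusted p = 0.0225). Among all genes tested that have a window, CACGTG was found in 12.7% of the 2280 fallen, 14.8% of the 1350 risen and 12.7% of those not called. The median GC content was 74.0% for the 9 fallen genes and 63.7% for the 5 risen genes. The part of base composition and of the motif in the split was not tested.

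Within the 3D culture every lysosomal gene called at days 16 and 19 was higher than at day 12. At day 16, 28 of the 39 genes rose and 0 fell, against 10.2% and 6.65% of all 13384 genes tested. The median log2 change was 1.07 over the set and 0.18 over all genes. At day 19, 22 rose and 0 fell (6.36% and 5.82% of all genes), and at day 23, 25 rose and 3 fell (10.5% and 15.3%, or 25.8% together). Under median-ratio scaling the counts were 20 and 0 at day 16, 21 and 0 at day 19, and 24 and 3 at day 23. Over all genes that scaling gave 763 risen and 1474 fallen at day 16, 673 and 1192 at day 19, and 1470 and 2199 at day 23. The comparisons with day 12 share the 4 day 12 libraries, so they are given side by side and do not support each other. The macrophage marker sum was also higher at day 16 (10562 to 12009 TPM) than at day 12 (4074 to 6269 TPM), and its part in the rise was not tested.

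**Figure D3:**
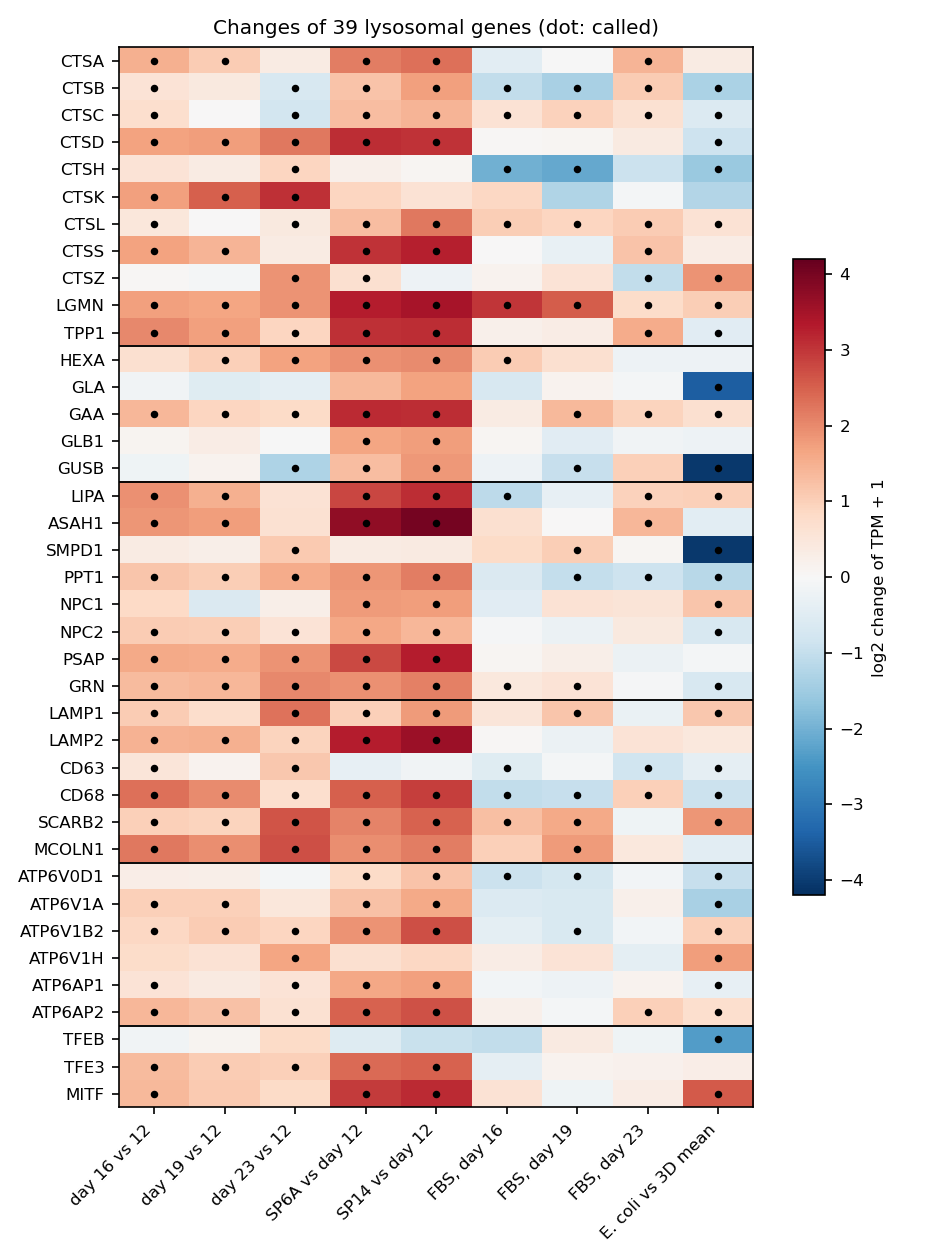
Log2 change of TPM + 1 (colour) of 39 lysosomal genes (rows, families separated by lines) in 9 comparisons among the 3D groups (columns), with a dot where a gene was called. The 5 columns against day 12 are mostly red, while the FBS and E. coli columns hold both colours.

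At day 16 the membrane protein CD68 and the channel MCOLN1 had the largest changes of the called genes. CD68, a macrophage endosomal glycoprotein, went from 220, 260, 267 and 217 TPM at day 12 to 1228, 1048 and 1376 TPM at day 16, and rose by 2.33 ± 0.24 (adjusted p = 2.32e-07). MCOLN1 rose by 2.22 ± 0.49 (adjusted p = 0.00245), to 159, 116 and 122 TPM. The protease TPP1, which removes tripeptides, went from 50.2, 68.5, 57.0 and 52.3 TPM to 228, 231 and 239 TPM, and rose by 2.02 ± 0.17 (adjusted p = 8.73e-09). LIPA, the acid lipase that frees cholesterol from esters, rose by 1.91 ± 0.25. ASAH1, acid ceramidase, rose by 1.87 ± 0.25, and LGMN by 1.73 ± 0.16. The membrane proteins rose in 6 of 6, the proteases in 9 of 11, the lipid genes in 6 of 8, the pump in 4 of 6 and the glycosidases in 1 of 5, GAA. Under median-ratio scaling LAMP1 (0.75, adjusted p = 0.123), CD63 (0.15, adjusted p = 0.451), CTSB, CTSK, CTSL, ATP6V1A and ATP6AP1 lost their calls. With the replicate number as a block, CTSK, CTSL and LAMP1 lost theirs (adjusted p = 0.129, 0.0695 and 0.0532). TFE3 rose by 1.34 and MITF by 1.36. MITF was not called without the third day 16 library (adjusted p = 0.133) or under median-ratio scaling (0.0659), and TFEB was at -0.13 (adjusted p = 0.89).

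By day 19 the 6 called genes with the largest changes were CTSK, CD68, MCOLN1, ASAH1, CTSD and TPP1. CTSK, the collagen-degrading cathepsin of osteoclasts, stood at 1.23 to 3.70 TPM at day 12 and at 28.8, 13.9 and 11.2 TPM at day 19, and rose by 2.50 ± 0.59 (adjusted p = 0.00567). Without its first day 19 library the change was 2.12 (adjusted p = 0.0507). CTSD reached 2456, 2534 and 2211 TPM, a rise of 1.74 ± 0.21 (adjusted p = 3.09e-06). All 3 values lay below the lowest 2D day 12 library (2632 TPM), a comparison that was not tested. CTSB, at 3576, 2529 and 1822 TPM, was not called at day 19 (0.41, adjusted p = 0.15).

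At day 23 calls went in both directions, also within families. CTSB fell from its day 12 level to 1183, 1190 and 1236 TPM, a change of -0.67 (adjusted p = 0.00648). CTSC fell by 0.76 and the beta-glucuronidase GUSB by 1.31. The membrane proteins rose in 6 of 6, of which CD68 was not called without the filter on low values (adjusted p = 0.0799), without the intensity trend (0.0632), with the replicate block (0.0844) or without any one of 4 of the 7 libraries (0.0683 to 0.115). SCARB2, the carrier of beta-glucocerebrosidase, went from 14.7 to 28.5 TPM at day 12 to 151, 120 and 138 TPM, and rose by 2.65 ± 0.21 (adjusted p = 2.69e-09). LAMP1 reached 48.3, 31.1 and 44.7 TPM and rose by 2.29 ± 0.32 (adjusted p = 9.92e-06). CTSK rose by 3.07, MCOLN1 by 2.71, CTSD by 2.21 and GRN by 2.03. The macrophage marker sum at day 23 was 5796 to 5989 TPM, within its range at day 12.

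The SP6A and SP14 groups had the highest lysosomal levels of the series. Their day is not given, so culture time and the SP label cannot be told apart here. They were tested only against 3D day 12, the group with the lowest mean share of the set (0.821% of TPM). Against 3D day 12, 32 of 39 genes rose and 0 fell in SP6A (16.9% and 11.3% of all genes), and 31 rose and 0 fell in SP14 (18.1% and 13.1%). The median log2 change of the set was 1.84 in SP6A and 2.11 in SP14, against 0.18 and 0.09 over all genes. Under median-ratio scaling 28 rose and 1 fell in SP6A, and 31 rose and 1 fell in SP14. Over all genes 1595 rose and 2150 fell in SP6A under that scaling, and 1804 rose and 2409 fell in SP14. Acid ceramidase (ASAH1) led both: it stood at 47.6 to 61.9 TPM at day 12, at 683 and 711 TPM in SP6A and at 832 and 909 TPM in SP14. Its log2 changes were 3.71 ± 0.28 and 4.03 ± 0.28 (adjusted p = 8.08e-10 and 1.37e-10). LAMP2 stood at 16.4 to 22.5 TPM at day 12, at 212 and 197 TPM in SP6A and at 241 and 263 TPM in SP14, and rose by 3.28 and 3.58. CTSD reached 6237 and 6180 TPM in SP6A and 6357 and 5534 TPM in SP14, above every other library of the series. PSAP reached 3110 and 3278 TPM in SP6A and 4570 and 4675 TPM in SP14. CTSS rose by 3.04 and 3.28, LGMN by 3.30 and 3.45, GAA by 3.15 and 3.10 and TPP1 by 3.08 and 3.12.

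The families took part to different extents. The glycosidases, 1 of 5 of which rose at day 16, rose in 4 of 5 in both groups, and GUSB reached 105 and 114 TPM in SP6A and 152 and 162 TPM in SP14. The GUSB call in SP6A was lost without either SP6A library (adjusted p = 0.0645 without the first and 0.0968 without the second). LAMP1 differed between the SP14 libraries, at 56.5 and 14.2 TPM. The pump rose in 5 of 6 in both. ATP6V0D2 was detected here, at 3.78 and 2.83 TPM in SP6A and at 4.58 and 3.82 TPM in SP14, and was at most 1.93 TPM elsewhere. CD63, CTSH, CTSK, SMPD1, GLA, ATP6V1H and TFEB were not called in either group, with CD63 at -0.34 in SP6A and -0.15 in SP14. A missing call does not mean an unchanged level. GLA stood at 202 and 204 TPM in SP6A and at 244 and 273 TPM in SP14, against 68.0 to 103 TPM at day 12. Of 29 other lysosomal hydrolases, 21 rose in each group, and of 12 other pump subunits 4 rose in SP6A and 6 in SP14. The macrophage marker sum was 12376 to 12741 TPM in SP6A and 13173 to 13410 TPM in SP14, also the highest of the series, and its part in the result was not tested. Endothelial markers (9 genes) summed to 90.7 to 121 TPM in these groups and to 38.5 TPM or less elsewhere.

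Between SP14 and SP6A no lysosomal gene was called. In limma 0 of 39 genes were called between them, against 0.0598% of all genes (0.0224% higher and 0.0374% lower), and 5 had an unadjusted p under 0.05. The lowest adjusted p of the set was 0.104, for PSAP, and the log2 changes ran from -0.88 to 0.89. Of the other settings, 4 called 2 to 6 genes and the rest, the replicate block among them, called 0. With 2 libraries in each group, the missing calls do not show that the groups are alike.

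**Figure D4:**
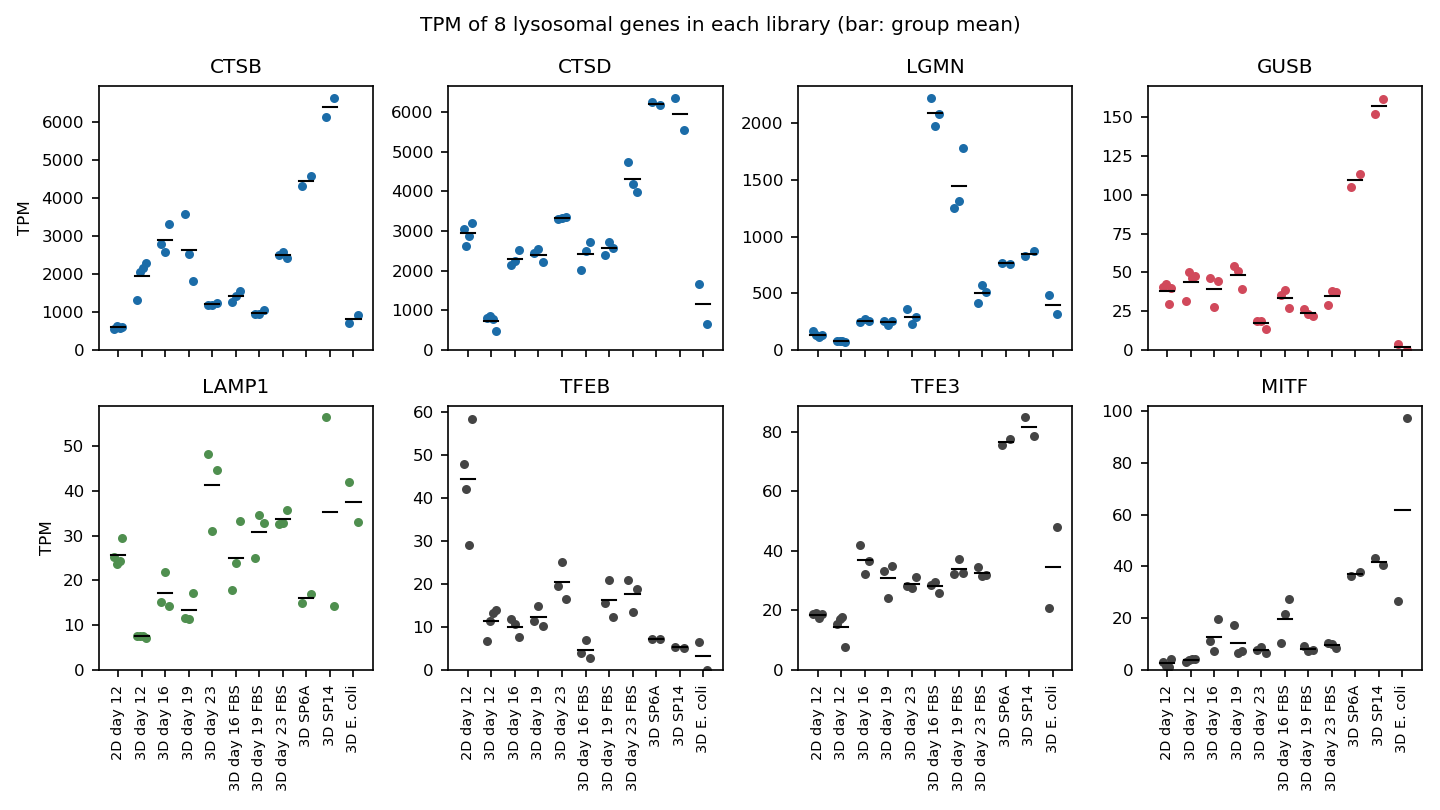
TPM (y axes, each from 0) of 8 lysosomal genes in every bulk library (points) of the 11 groups (x axis), with group means as bars. CTSB, CTSD, GUSB and TFE3 are highest in SP6A and SP14, LGMN in 3D day 16 FBS, and TFEB in 2D day 12. The mean of MITF is highest in E. coli through 1 library at 97.2 TPM, and the other, at 26.6 TPM, lies below the SP6A and SP14 libraries.

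The 3 MiT factors differed in where they were highest. TFEB had its highest level in 2D day 12 (44.4 ± 12.2 TPM, SD, n = 4) and its next in 3D day 23 (19.5, 25.1 and 16.5 TPM). These did not overlap, but 3D day 23 overlapped 3D day 23 FBS (21.0, 13.5 and 18.8 TPM) and 3D day 19 FBS (15.7, 21.0 and 12.4 TPM). TFE3 was highest in SP14 (84.9 and 78.6 TPM) and SP6A (75.6 and 77.5 TPM), against 7.75 to 17.9 TPM in 3D day 12. MITF stood at 36.4 and 37.9 TPM in SP6A and at 43.2 and 40.5 TPM in SP14. It was at 3.16 to 4.42 TPM in 3D day 12 and at 26.6 and 97.2 TPM in the 2 E. coli libraries. TFE3 rose by 2.38 and 2.47 in SP6A and SP14 and MITF by 2.95 and 3.12, while TFEB was not called (-0.54 and -0.93).

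The levels of TFE3 and MITF mostly varied with those of the other lysosomal genes across libraries, and that of TFEB mostly ran the other way. Over the 32 libraries, the log2 level of TFE3 had a positive correlation with 33 of the 36 other genes tested, with a median of 0.62. MITF had one with 31 of 36 (median 0.56) and TFEB with 12 of 36 (median -0.27). The same counts were not made for genes outside the set, so they are not particular to these factors. ASAH1, LAMP2 and CTSS had higher medians with the rest of the set, at 0.72, 0.72 and 0.69. Over all pairs of the 39 genes the median was 0.43. The closest pair was CTSS and ATP6AP2, at 0.97, and CTSZ, CD63 and TFEB had medians below 0 with the rest. The points share groups, scaling and cell mixture, so these are descriptions.

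FBS changed single lysosomal genes strongly in both directions. Averaged over days 16, 19 and 23, 13 genes rose and 6 fell with FBS, against 18.6% and 16% of all genes (34.6% together), and the median log2 change was 0.12 for the set and 0.04 for all genes. Legumain changed most. LGMN stood at 247, 273 and 255 TPM at day 16 without FBS and at 2223, 1979 and 2080 TPM with it, and rose by 3.01 ± 0.17 (adjusted p = 2.11e-11). At day 19 it stood at 257, 219 and 255 TPM without FBS and at 1252, 1316 and 1780 TPM with it, a rise of 2.55. At day 23 it went from 358, 230 and 289 TPM to 418, 570 and 515 TPM, a rise of 0.79. Cathepsin H, an aminopeptidase, moved the other way. CTSH stood at 325, 291 and 378 TPM at day 16 without FBS and at 47.1, 84.6 and 133 TPM with it, and fell by 2.01 ± 0.34 (adjusted p = 0.000191). It fell by 2.14 at day 19 and was not called at day 23 (-0.89, adjusted p = 0.0859). In the average, MCOLN1 rose by 1.09, CTSL by 1.01, GAA by 0.89 and SCARB2 by 0.88. PPT1, the palmitoyl thioesterase, fell by 0.82, ATP6V0D1 by 0.59 and CTSB by 0.45. None of the MiT factors was called at any day.

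By day, 6 genes rose and 6 fell with FBS at day 16 (8.09% and 10.4% of all genes), 9 and 7 at day 19 (12.9% and 12.7%), and 12 and 3 at day 23 (8.99% and 5.11%). Under median-ratio scaling the split of the set was 7 and 6, 10 and 7, and 9 and 5. All genes then split 1185 and 1181, 1759 and 1657, and 884 and 957. Without the clone and mitochondrial genes the split of the set was 9 and 5, 13 and 5, and 14 and 3. All genes then split 1301 and 1164, 2233 and 1367, and 1332 and 644. At day 23 the proteases made up most of the rise, with 7 of 11 risen. TPP1 went from 112, 102 and 106 TPM to 309, 328 and 315 TPM and rose by 1.56 ± 0.18 (adjusted p = 1.12e-06). CTSA, the protective protein of a multienzyme complex, went from 141, 106 and 102 TPM to 368, 280 and 290 TPM and rose by 1.42 ± 0.19 (adjusted p = 8.71e-06).

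The response to FBS itself differed between day 16 and day 23 for 9 genes. In the test of that difference 5 were higher and 4 lower at day 23, against 7.66% and 3.5% of all genes. Under median-ratio scaling 5 of the set were higher and 7 lower, and over all genes 725 were higher and 710 lower. CTSB, CD68 and LIPA fell with FBS at day 16 and rose with it at day 23. At day 23 CD68 (0.78, adjusted p = 0.0532) and LIPA (0.75, adjusted p = 0.0593) were not called under median-ratio scaling. The LIPA call was also lost without the second day 23 library (adjusted p = 0.0712) and without the second or the third day 23 FBS library (0.0703 and 0.0547). CTSB went from 2784, 2596 and 3319 TPM to 1258, 1425 and 1563 TPM with FBS at day 16, and from 1183, 1190 and 1236 TPM to 2513, 2594 and 2427 TPM at day 23. The difference of the 2 responses was 2.09 ± 0.27 for CTSB (adjusted p = 1.47e-05), 2.07 ± 0.38 for LIPA (adjusted p = 0.00076) and 2.03 ± 0.36 for CD68 (adjusted p = 0.000613). For LGMN it was -2.23 ± 0.24 (adjusted p = 1.79e-06). The macrophage marker sum was 10562 to 12009 TPM without and 8066 to 10730 TPM with FBS at day 16, and 5796 to 5989 TPM without and 7510 to 8026 TPM with it at day 23. Its median thus moved with CTSB, CD68 and LIPA, from 10993 to 10238 TPM at day 16, where the ranges overlapped, and from 5966 to 7815 TPM at day 23. Its part in these changes was not tested.

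The E. coli group was compared with the mean of the 3D groups without FBS at days 12, 16, 19 and 23, since its own day is not given. In limma 12 genes rose and 17 fell, against 13.8% and 42.7% of all genes (56.5% together), and the median log2 change was -0.34 for the set and -0.84 over all genes. The 2 libraries differed from each other: MCOLN1 stood at 211 and 21.3 TPM, HEXA at 275 and 69.6 TPM and CTSD at 1652 and 652 TPM. With libraries weighted by their agreement (array weights) 3 genes of the set were called, all lower: SMPD1, GLA and GUSB. Over all 13384 genes that setting called 161 higher and 940 lower, so losses are not particular to the set. SMPD1 was listed at 0 in both libraries, against 9.24 to 31.99 TPM in the 13 libraries compared. GUSB stood at 3.54 TPM and was listed at 0 in the second library, against 13.8 to 54.2 TPM, and GLA at 36.3 and 0 TPM, against 48.1 to 103 TPM. The largest calls toward higher levels in this group were those of MITF (26.6 and 97.2 TPM; 2.59 ± 0.39, adjusted p = 6.02e-06), CTSZ (87.9 and 83.3 TPM; 1.89 ± 0.22, adjusted p = 1.9e-07) and SCARB2 (147 and 203 TPM; 1.85 ± 0.21, adjusted p = 8.67e-08). These 3 were not called with array weights. TFEB stood at 6.44 TPM in one library and was listed at 0 in the other, against 6.85 to 25.1 TPM in the 13 libraries compared. Only 7954 and 8103 genes reached 1 TPM in the E. coli libraries, against 11862 to 13257 in the other 30, and mitochondrial genes took 17.2% and 25.2% of TPM, against 4.24% to 10.9%. Macrophage markers summed to 3400 to 4071 TPM. Mast, basophil or eosinophil markers (10 genes, of which TPSAB1, TPSB2 and KIT were at 0) summed to 1153 to 1909 TPM in these libraries and to at most 873 TPM elsewhere. Erythroid markers summed to 0 in one library and to 3484 TPM in the other. The part of these in the result was not tested.

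In the single-cell library of 3D cells at day 12, the lysosomal set took its largest share of RNA in the macrophage-like cells, and cathepsin B had the largest ratio to the other cells. From 8159 barcodes, 7592 cells were kept after filters on UMIs (distinct captured molecules), genes, mitochondrial counts and predicted doublets. They formed 13 clusters, of which 3 were macrophage-like by 10 or 11 of 12 markers. These held 2112 cells (27.8%). The largest class was stroma- or fibroblast-like (2654 cells), 542 cells were granulocyte-like, and 1219 cells lay in 2 unnamed clusters. With 1 library there is no replicate, so values are pooled UMI counts scaled to the same total in each class (CPM), intervals are exact Poisson 95% intervals of counting error alone, and no test was made. The 40 genes made up 0.841% of UMIs in macrophage-like cells, 0.490% in granulocyte-like cells, 0.413% in megakaryocyte-like cells and 0.255% in stroma- or fibroblast-like cells.

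Of 38 members with at least 10 CPM in either population, 24 were at least 2 times higher in macrophage-like cells than in all other cells, against 14.3% of 11314 genes. None was at most 0.5 times as high, a count that was not made over all genes. The median ratio was 2.17 over the 38 members and 0.923 over all genes compared. The proteases passed in 9 of 10, the lipid genes in 6 of 8, the pump in 3 of 6, the glycosidases in 2 of 5, the membrane proteins in 2 of 6 and the MiT factors in 2 of 3. CTSB stood at 1473 CPM (95% interval 1464 to 1483) in macrophage-like cells and at 112 CPM in the others, a ratio of 13.2. The ratios of CTSS, CTSC and CD68 were 7.95, 6.64 and 6.50. C1QB, which marks macrophages, stood at 494 CPM in macrophage-like cells and at 6.4 to 30.7 CPM in the other classes. The part of free RNA and mixed droplets in these counts was not tested. Median depth was 30265 UMIs in macrophage-like cells and 13960 in the others.

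**Figure D5:**
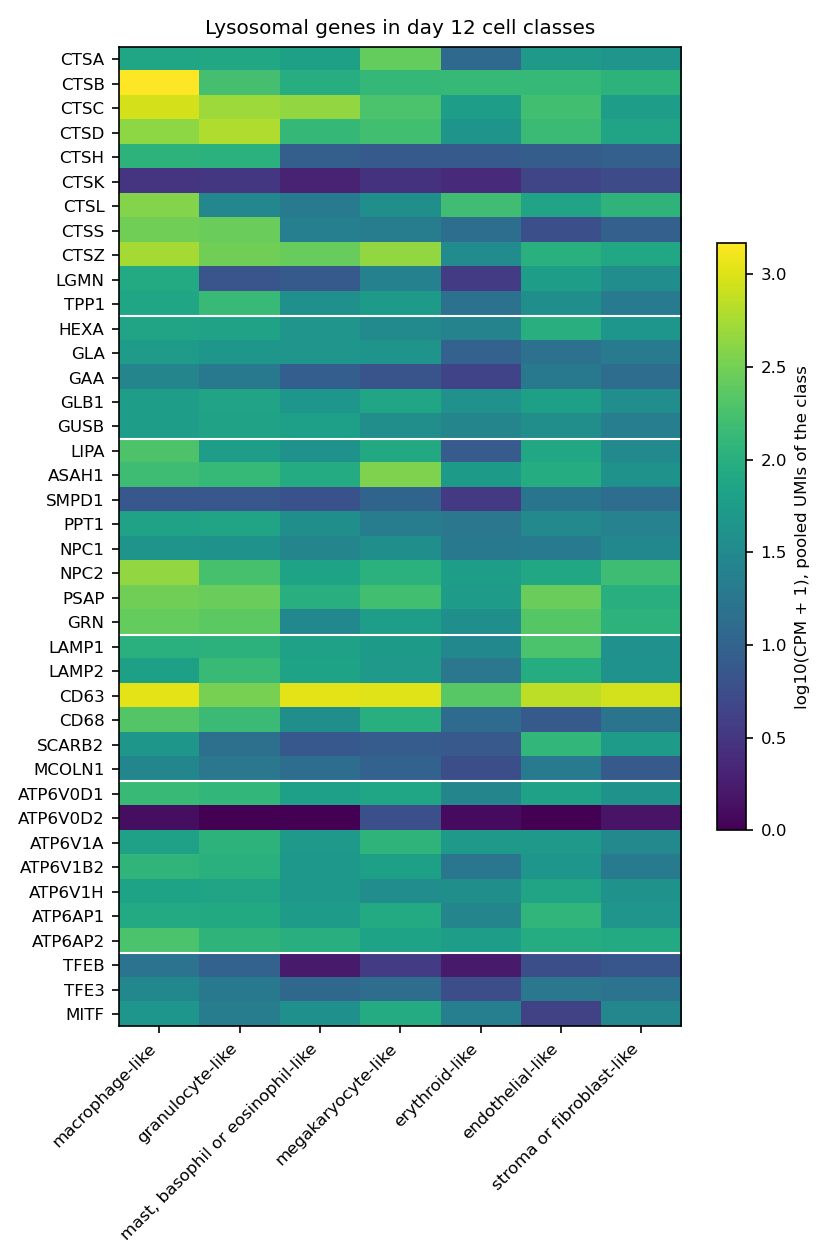
Level of the 40 lysosomal genes (rows, families separated by lines) in 7 cell classes (columns) of the day 12 single-cell library, as log10(CPM + 1) of pooled UMIs. CTSB in macrophage-like cells is the brightest entry at 1473 CPM, and CD63 is bright in most classes.

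Other members were highest in other classes. Of the 40, 22 were highest in macrophage-like cells, and the share of all genes highest there was not counted. Some of the 22 led by little. CD63 stood at 1095 CPM, against 1091 in mast, basophil or eosinophil-like cells, and NPC1 at 42.3 CPM, against 41.1 in granulocyte-like cells. CTSD was highest in granulocyte-like cells (613 CPM, against 420 in macrophage-like cells). TPP1 and LAMP2 were also highest in granulocyte-like cells, at 135 and 139 CPM. ASAH1 and CTSA were highest in megakaryocyte-like cells, at 358 and 259 CPM, against 151 and 75.0 CPM in macrophage-like cells. LAMP1 and SCARB2 were highest in endothelial-like cells, at 184 and 125 CPM, against 101 and 46.0 CPM. TFEB was highest in macrophage-like cells, at 15.3 CPM against 8.87 in granulocyte-like cells, while MITF was highest in megakaryocyte-like cells at 88.6 CPM.

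The 3 macrophage-like clusters carried different amounts of lysosomal RNA. The first (752 cells) was led by TNIP3, IL6, IL1B and the chemokines CCL3 and CCL4. The second (699 cells) had 7 of 8 markers of dividing cells. The third (661 cells) was led by IL4I1, SPP1, TREM2 and LPL, genes known from lipid-handling macrophages. The set made up 0.780%, 0.763% and 1.08% of their UMIs. MITF stood at 20.2, 20.1 and 132 CPM, LIPA at 116, 131 and 435 CPM, CTSD at 322, 311 and 776 CPM, SCARB2 at 28.5, 42.6 and 84.8 CPM and CTSB at 1340, 1111 and 2284 CPM. LAMP1 (97.1, 108 and 97.2 CPM), CTSA (74.1, 75.0 and 76.6 CPM) and GRN (251, 263 and 281 CPM) varied little among them. A further 4 members were lowest in the third cluster, with intervals below those of the other two: CTSZ (567, 572 and 475 CPM), ATP6V0D1 (145, 148 and 110 CPM), NPC1 (45.9, 44.2 and 32.8 CPM) and CD63 (1101, 1147 and 1004 CPM). TFEB stood at 11.6, 20.8 and 13.8 CPM. The clusters were formed on the genes of the same cells, so these differences are descriptions.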

How the data were processed

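Bulk values are the deposited TPM of 32 libraries. Per the submitters' processing notes, the tools include Trim Galore 0.4.4, HISAT2, HTSeq 0.11.1 and Cell Ranger on hg38 (GRCh38); no source used here says which of them produced the TPM. Libraries were prepared with SMART-seq2, which does not mark strand, per the labels' protocols, so antisense or overlapping genes (PLTP for CTSA, RPL36A-HNRNPH2 for GLA, CAP1 for PPT1, RMC1 for NPC1 and others) may share reads.

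Log2(TPM + 1), with a pseudocount of 1, was fitted with limma 3.58.1 (R 4.3.3, intensity trend) keeping genes whose mean across the fitted libraries reached 1 TPM. 3D against 2D used 8 libraries, and the other comparisons 1 fit of the 28 3D libraries. Two-sided p-values were adjusted by Benjamini-Hochberg over all genes, with a threshold of 0.05. The fit was tested on simulated data in 4 comparisons: 3D against 2D, day 16 against day 12, FBS on average, and SP14 against SP6A. It recovered 26%, 14%, 52% and 6% of genes given a log2 change of 1. Of genes given a change of 2 it recovered 80%, 62%, 93% and 42%. A gene without a call may therefore still have changed. Fold changes on this scale understate changes of low genes. Values in every library are named for called members with an absolute log2 change of at least 1 in 3D against 2D and for the MiT factors; in other comparisons for up to 6 called members with the largest changes, and a few more for context. Members, lists and markers were chosen with earlier results of these data known. Alternatives were other pseudocounts, filters, scalings, variance models, the replicate number as a block, and leaving out libraries.

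The deposited single-cell counts (UMIs) of the day 12 library were filtered (at least 1000 UMIs and 500 genes, at most 15% mitochondrial), 369 doublets predicted by Scrublet were removed, and 2000 variable genes, 30 components, 15 neighbours and Leiden resolution 0.5 (scanpy 1.11.5, leidenalg 0.10.2) gave clusters, named where at least 5 markers of a list led it. This rule for names was set with the clusters in view.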

Additional observations from a re-analysis of the deposited data

Results flagged for a closer look

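In groups of 4 libraries, 6 of 78 tests found 1 library far from the other three, and chance alone picks out about 1 in 20 groups. Of the 6, 4 concern 3D day 12: CTSA at 76.3 TPM in replicate 1 (others 94.3 to 97.1), and in replicate 4 HEXA at 75.5 TPM (others 92.9 to 95.5), GLB1 at 51.2 TPM (others 37.0 to 37.8) and MCOLN1 at 9.17 TPM (others 37.5 to 41.2). In 2D day 12, PSAP stood at 1217 TPM in replicate 4 (others 1097 to 1105) and TFE3 at 17.4 TPM in replicate 3 (others 18.9 to 19.1). The calls of HEXA, MCOLN1 and PSAP in 3D against 2D were kept without each of the 8 libraries in turn.

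The response to FBS differed between day 23 and day 16, tested as a difference of the responses in limma, for 9 genes. It was higher at day 23 by 1.88 for CTSA, 2.09 for CTSB, 1.37 for TPP1, 2.07 for LIPA and 2.03 for CD68 on the log2 scale. The values below 0 were -1.17 for CTSZ, -2.23 for LGMN, -1.31 for HEXA and -1.43 for SCARB2. The difference for HEXA (adjusted p = 0.0417) was lost without any one of 9 of the 12 libraries, with adjusted p from 0.0611 to 0.104, and that for CTSZ (adjusted p = 0.0244) without any one of 6, with 0.0535 to 0.0716. The other 7 were kept in every alternative run.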

How the results depend on the processing

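Single members were recomputed under every alternative: 7779 values kept their direction and call, 284 lost a call, 161 gained one and 5 reversed. All 5 reversals came without E. coli replicate 2, where the 2 leave-one-out values were -3.46 and 0.99 for CTSK, -1.20 and 0.77 for HEXA, 2.44 and -0.12 for NPC1, -0.81 and 0.040 for CD63, and -2.07 and 1.18 for MCOLN1. SP14 against SP6A moved from 0 called members to 3 without the filter, 2 with median-ratio scaling, 6 with array weights and 2 without the E. coli libraries. The difference of FBS responses moved from 9 to 16 with array weights and 15 without the E. coli libraries, and E. coli from 29 to 3 with array weights. The causes were not tested. Leaving out 1 library gave 20 to 22 called members for 3D against 2D, 22 to 26 at day 16, 18 to 23 at day 19, 23 to 26 at day 23, 25 to 30 in SP6A, 29 to 31 in SP14, 0 to 0 between them and 23 to 32 in E. coli. For FBS it gave 16 to 20 on average, 9 to 12, 11 to 16 and 12 to 14 by day, and 7 to 9 for the difference. The single-cell count of 24 ranged from 22 to 24.

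Libraries with the same replicate number did not deviate together (correlations -0.124 to 0.0352, no pair over 0.1), so the numbers were not taken as pairs. With the replicate block the called members were 21 for 3D against 2D, 25, 21 and 25 for the 3 later days, 19 for FBS on average, 12, 15 and 15 by day, 8 for the difference, 30 in SP6A, 31 in SP14, 0 between them and 28 in E. coli.

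Over all genes, array weights moved the calls from 2254 to 4487 at day 16, 1630 to 4102 at day 19, 3774 to 7419 in SP6A, 4173 to 7444 in SP14, 8 to 846 between them, 1887 to 2916 for FBS at day 23, 1494 to 2467 for the FBS difference and 7558 to 1101 in E. coli. Without the E. coli libraries they were 3501 at day 16, 2648 at day 19, 3732 for FBS at day 16 (2480 before), 3069 at day 23, 2652 for the difference and 34 between SP14 and SP6A. Without the filter they were 7277 in SP6A and 669 between SP14 and SP6A. Leaving out 1 library gave 1626 for FBS at day 16 (without day 16 replicate 3), 2341 and 2111 in SP6A, and 2735 and 2582 in SP14. For SP14 against SP6A other settings gave 29 (without clone and mitochondrial genes), 4 (no trend), 17 (replicate block) and 5 (without SP6A replicate 1). Bulk depth is unknown, and 2 libraries a group limit SP6A, SP14 and E. coli.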

Other observations

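Bulk and single-cell levels at 3D day 12 ordered the 40 genes alike in the main (Spearman rho 0.783 across genes, which are not replicates), with a median of 1.115 TPM per pooled CPM over all cells. CTSZ stood far from that ratio, at 16.3 TPM in bulk (rank 31 of 40) and 309 CPM in single cells (rank 4). LAMP1 (7.49 TPM and 75.6 CPM) and MITF (3.96 TPM and 39.8 CPM) also had low bulk values. At the other end stood CTSH (219 TPM and 60.2 CPM) and NPC2 (822 TPM and 275 CPM). TPM is corrected for gene length and covers whole transcripts, while CPM counts molecules. The cell mixtures also differed. Stroma- or fibroblast-like cells were 35.0% of the single-cell library. In bulk 3D day 12 the 9 stroma or fibroblast markers summed to only 4.69 to 74.8 TPM. The part of each was not tested.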
